A study of Mus musculus with 2 samples.

Results

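Ribosomal protein genes encode the protein part of the ribosome. They were followed in single-cell RNA counts from pancreatic islets of 12-week-old female mice on a C57BL/6 background. Members were gene symbols of the form Rpl or Rps plus a number, an optional letter a, x, y or l, and an optional last digit. Rplp0, Rplp1, Rplp2 and Rpsa were added by name. Each needed at least 50 CPM (UMI counts relative to all UMIs of the summed cells) in the cells whose leading hormone transcript was insulin. That rule gave 80 genes, 48 of the large and 32 of the small subunit, among 32285 features of the count tables. A total of 83 symbols matched by name and 3 of them fell under the minimum.

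The series holds 1 library labelled SpopβKO, a beta-cell deletion of the ubiquitin ligase adaptor gene Spop, and 1 library from Spop fl/fl mice, the floxed control. Both were made after the islets had recovered for 3 days in RPMI medium with 10 mM glucose, with the 10x Genomics 3′ chemistry, and both passed dead cell and debris removal. The labels do not say how many mice were pooled, which Cre line was used or which exons were removed. With 1 library per genotype there is no replicate and no test of the genotypes, and intervals below are 95% and cover counting error only. After filtering, 8842 knockout and 6850 control cells remained, and 21 cell barcodes occurred in both tables, 14 of them among the kept cells of both.

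Spop itself had 81.6 scaled CPM in insulin-leading cells of the library labelled knockout and 66.0 in those of the control library, a log2 ratio of 0.30 (0.25 to 0.36). In glucagon-leading cells it had 71.8 scaled CPM in the library labelled knockout and 71.3 in the control library, a log2 ratio of 0.01. A 3′ count need not come from the deleted exons, so it does not check the label, and "knockout" below means the library labelled so. Cell type markers were counted in both groups of cells. All 9 beta cell markers reached 10 CPM in insulin-leading cells of both libraries, and all 6 alpha cell markers did so in glucagon-leading cells. However, 8 of the 9 beta cell markers also reached it in glucagon-leading cells, and 4 of the 6 alpha cell markers in insulin-leading cells. Reaching 10 CPM therefore does not tell the groups apart. The markers also include Ins1, Ins2 and Gcg, which set the groups. Acinar markers summed to 110 CPM in knockout and 13.0 CPM in control insulin-leading cells, with all 7 higher in knockout. Macrophage markers summed to 173 CPM in knockout and 100 CPM in control insulin-leading cells, with all 6 higher in knockout. Gm42418, a transcript that overlaps ribosomal RNA repeats, had 7037 CPM in knockout and 20478 CPM in control insulin-leading cells. Insulin transcripts made up 1.35% of UMIs in knockout and 0.738% in control glucagon-leading cells, which free RNA or mixed barcodes can give. The part of these values in the results below was not tested.

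A ribosome has a small subunit, which reads the messenger RNA, and a large subunit, which joins amino acids, and each protein is needed in about equal number. In vertebrates most ribosomal protein messages begin with a cytosine followed by a run of pyrimidines, the terminal oligopyrimidine (TOP) tract, through which the mTOR pathway and the binding protein LARP1 set their translation together. Beta cells carry a heavy load of translation, since insulin makes up much of their output.

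The start regions of a few members show this tract. Each line gives 25 bases before and 25 bases from the annotated start, 5′ to 3′ on the gene's own strand, from RefSeq on GRCm38.p6. Capitals mark the pyrimidine run from the annotated start onward, and pyrimidines directly before the start are left in lower case. Rpl35 and Rps18 are shown because they lay among the highest and the lowest knockout over control ratios, Rpl15 because it was among the members furthest below glucagon-leading cells, Rps27 because it is the parent of a paralog pair, and Rps6 because its product is the classical substrate of S6 kinase.
Rpl35, chr2:39005107-39005156, minus strand: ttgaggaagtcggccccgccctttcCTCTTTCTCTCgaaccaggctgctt
Rps18, chr17:33955641-33955690, minus strand: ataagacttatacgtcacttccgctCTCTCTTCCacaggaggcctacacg
Rpl15, chr14:18270962-18271011, minus strand: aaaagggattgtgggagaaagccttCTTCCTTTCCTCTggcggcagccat
Rps27, chr3:90213624-90213673, minus strand: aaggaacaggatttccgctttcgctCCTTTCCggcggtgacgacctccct
Rps6, chr4:86857343-86857392, minus strand: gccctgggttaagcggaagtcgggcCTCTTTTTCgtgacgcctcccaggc
A RefSeq start was found for 60 members. A C at the start with at least 4 pyrimidines after it was present in 13 of them, 21.7%, against 3.01% of 27025 genes with a window. Allowing the tract to begin within 5 bases of the annotated start, 29 members, 48.3%, had one, against 21.2% of the same genes. The motif CCGGAAG, searched like TATAAA on both strands in the window of 250 bases before to 50 bases after the start, was present in 41.7% of members against 9.93% of genes. The motif TATAAA was present in 11.7% of members against 15.7% of genes. A match is a description of these letters and not of a site in use. Knockout over control in insulin-leading cells, members with the strict tract had a median log2 ratio of -0.09 over 13 genes and those without it -0.10 over 47 genes. With the tract allowed within 5 bases the medians were -0.06 over 29 genes with it and -0.11 over 31 genes without it, and for CCGGAAG -0.06 over 25 genes with it and -0.11 over 35 genes without it.

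Ribosomal protein messages were among the most abundant of these cells. In the summed insulin-leading cells of both libraries 63 of the 100 most abundant genes were members, and 69 members had at least 1000 CPM. A 3′ UMI count is one count per captured molecule and does not scale with gene length. Levels of different genes can thus be set side by side, apart from differences in capture and reads shared with near-identical copies. The median level was 1795 CPM, 1779 CPM over large subunit and 1942 CPM over small subunit genes. Levels ran 52.3-fold, from 83.3 CPM for the paralog gene Rpl7l1 to 4355 CPM for Rpl41. The lower end of this range rests on Rpl7l1 alone, and the members next above it are given below.

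Among the highest were Rpl41, whose product is the smallest ribosomal protein, with 4111 CPM in knockout (4096 to 4125) and 4682 CPM in control insulin-leading cells (4665 to 4700), and Rpl13, with 4168 CPM in knockout and 4522 CPM in control. Rps24 had 3889 CPM in knockout and 3660 CPM in control, Rpl32 had 3253 CPM in knockout and 3608 CPM in control, and Rplp1 had 3272 CPM in knockout and 3510 CPM in control. Of these, Rps24 alone was higher in the knockout library. Rpl41, Rpl13, Rpl32 and Rplp1 belong to the large subunit and Rps24 to the small one. The acidic stalk, which recruits translation factors to the large subunit, was uneven at the message level. Rplp1 was above its partner Rplp2, which had 1371 CPM in knockout and 1446 CPM in control, and above the shared base protein Rplp0, which had 1629 CPM in knockout and 2124 CPM in control. Rpsa, a small subunit protein also named for laminin binding, had 2395 CPM in knockout and 2734 CPM in control.

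**Figure D1:**
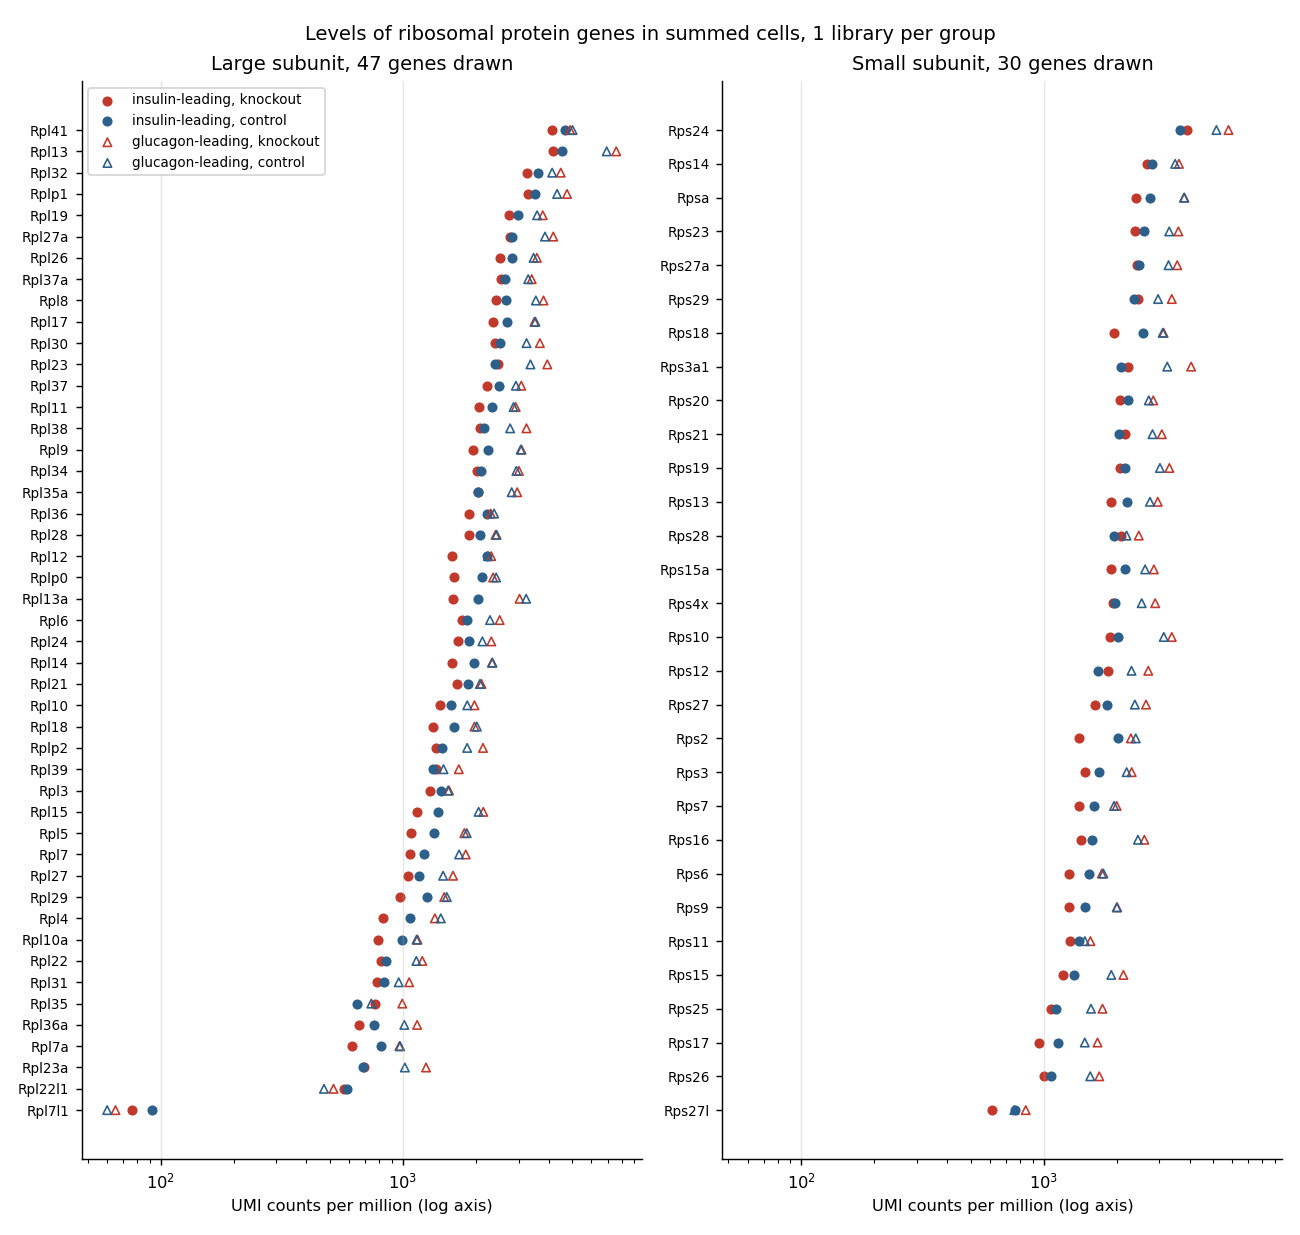
Levels of 77 of the 80 ribosomal protein genes in summed cells, in CPM on a log axis, with filled circles for insulin-leading and open triangles for glucagon-leading cells, red for the knockout and blue for the control library. Triangles lie to the right of circles for most genes, and Rpl7l1 and Rpl22l1 at the foot of the left panel show the other order, as Rps27l barely does in the control library (762 CPM in insulin-leading and 757 CPM in glucagon-leading cells).

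At the bottom lay the paralog genes. Rpl7l1 had 76.6 CPM in knockout and 92.4 CPM in control insulin-leading cells. Rpl22l1 had 569 CPM in knockout and 587 CPM in control, and Rps27l had 612 CPM in knockout and 762 CPM in control, and next came Rpl23a with 693 CPM in knockout and 683 CPM in control. The 4 members nearest above the 50 CPM minimum were these, and 3 of them are paralogs of another member. Below the minimum lay Rpl10l, with 0 UMIs in knockout and 1 in control insulin-leading cells, Rpl39l, with 1 UMI in knockout and 3 in control, and Rpl3l, with 2 UMIs in knockout and 1 in control. Rpl10l and Rpl39l are known from testis and Rpl3l from heart and skeletal muscle. These lie at or under the 3 counts that a count of 0 allows, 0.0395 CPM in knockout and 0.0528 CPM in control, so no ratio is given.

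The balance within paralog pairs differed between endocrine cell groups and, for some pairs, between libraries. Rpl22l1 took 41.1% of the UMIs of the pair Rpl22 and Rpl22l1 in knockout insulin-leading cells (40.8 to 41.4, exact binomial) and 40.9% in control ones (40.6 to 41.3). In glucagon-leading cells it took 30.1% in knockout and 29.4% in control. Rpl7l1 took 6.66% of its pair with Rpl7 in knockout and 7.03% in control insulin-leading cells, against 3.46% in knockout and 3.41% in control glucagon-leading cells. Rps27l took 27.4% of its pair with Rps27 in knockout and 29.5% in control insulin-leading cells, against 24.2% in knockout and 24.1% in control glucagon-leading cells. The paralog share was higher in insulin-leading cells for all 3 pairs in both libraries, and the intervals of the cell groups did not overlap. Between libraries the intervals in insulin-leading cells did not overlap either for Rps27l and Rpl7l1, whose shares were lower in knockout, while they overlapped for Rpl22l1. These intervals hold counting error only and are narrow at such counts. Knockout over control in insulin-leading cells, the interval of the log2 ratio lay below 0 for 61 of the 80 members and above 0 for 14. Whether the shares would differ between further libraries was not tested.

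Of all UMIs, 14.3% fell on the 80 members in the 7488 insulin-leading cells of the knockout library and 15.7% in the 4762 of the control library. In the 1191 glucagon-leading cells of the knockout library the share was 21.2%, and in the 1897 of the control library 19.9%. Cells led by pancreatic polypeptide had 18.5% in knockout (145 cells) and 18.7% in control (162 cells). The few cells led by somatostatin, 14 in knockout and 24 in control, had 18.0% in knockout and 18.5% in control. Per cell, the middle 90% of insulin-leading cells ran from 3.02% to 22.4% in knockout and from 2.49% to 22.5% in control. In glucagon-leading cells it ran from 14.5% to 28.1% in knockout and from 9.71% to 27.4% in control, so the groups overlap cell by cell and the insulin-leading cells have a long low tail.

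Ratios below are log2 ratios of summed counts after TMM scaling, a trimmed mean that sets most genes to no difference, and they are read beside the median over all genes with a mean of at least 25 CPM. Insulin-leading over glucagon-leading cells, 78 of 80 members were lower in each library. The median over members was -0.51 in knockout, beside 0.04 over 5515 genes, and -0.34 in control, beside 0.12 over 5599 genes. At least 1.5-fold lower were 28 members in knockout and 6 in control, while 4.86% of all genes compared were so in knockout and 5.72% in control. At least 1.5-fold higher were no member in knockout and 1 in control, Rpl7l1, where 7.27% of all genes in knockout and 8.5% in control were. Relative to the median of all genes the members stood at -0.55 in knockout and -0.46 in control.

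The member furthest below was Rpl13a in both libraries. It had 1614 CPM in insulin-leading and 3030 CPM in glucagon-leading cells of the knockout library, a log2 ratio of -0.85 (-0.87 to -0.83). In the control library it had 2050 CPM in insulin-leading and 3225 CPM in glucagon-leading cells, a log2 ratio of -0.66 (-0.68 to -0.65). Close to it were Rpl15 at -0.84, Rps16 at -0.81 and Rpl13 at -0.81 in knockout, and Rps10, Rps16 and Rps3a1, each at -0.64, in control. At the other end Rpl7l1 had 76.6 CPM in insulin-leading and 65.1 CPM in glucagon-leading knockout cells, a log2 ratio of 0.29. In control cells it had 92.4 CPM in insulin-leading and 60.2 CPM in glucagon-leading ones, a log2 ratio of 0.61. Rpl22l1 had log2 ratios of 0.20 in knockout and 0.31 in control. Rps28 at -0.19 and Rpl41 at -0.19 were next in knockout, and Rps27l at -0.0005 and Rpl12 at -0.02 in control. The upper end of the order is thus held in both libraries by Rpl7l1 and Rpl22l1.

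**Figure D2:**
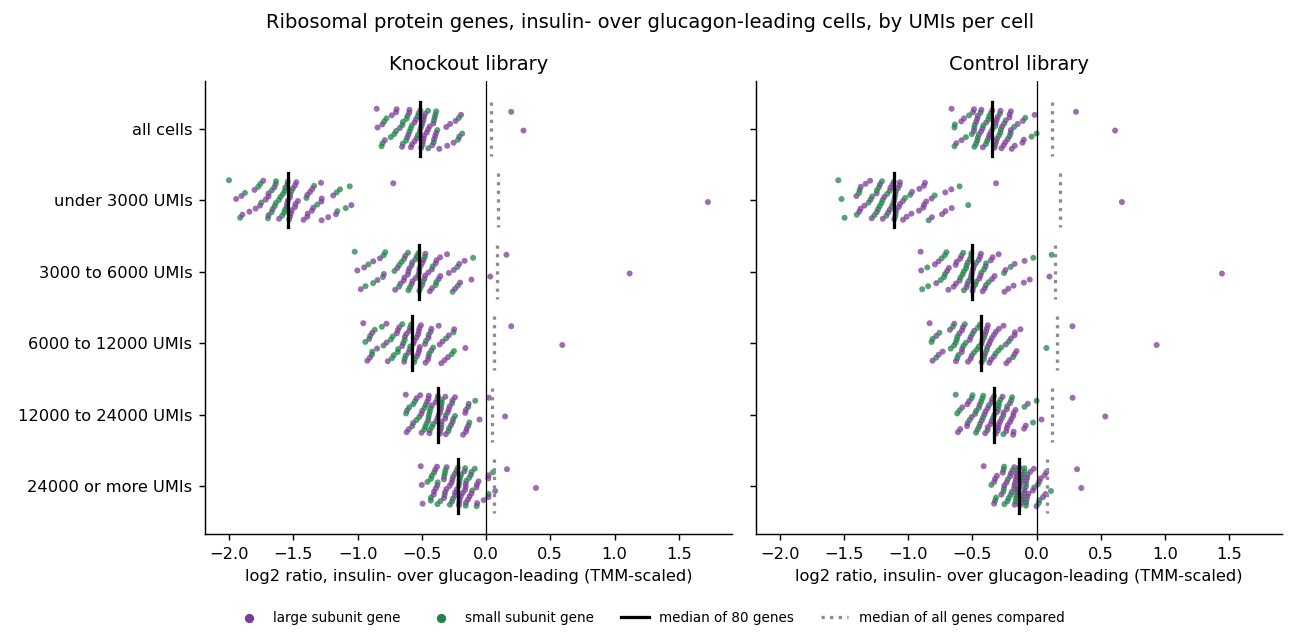
Log2 ratio of each of the 80 genes, insulin-leading over glucagon-leading cells, knockout library left and control library right, for all cells and within bands of UMIs per cell. Black bars are medians over the 80 genes and dotted grey bars medians over all genes compared, and the black bars lie below 0 in every band, furthest at under 3000 UMIs and nearest at 24000 UMIs or more.

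The contrast was repeated between cells of like UMI totals. The median over members was -1.54 in knockout and -1.11 in control cells with under 3000 UMIs. It was -0.52 in knockout and -0.50 in control cells with 3000 to 6000 UMIs, and -0.57 in knockout and -0.44 in control cells with 6000 to 12000 UMIs. It was -0.37 in knockout and -0.33 in control cells with 12000 to 24000 UMIs, and -0.22 in knockout and -0.13 in control cells with 24000 UMIs or more. At least 1.5-fold lower were 79 members in knockout and 77 in control under 3000 UMIs, beside 19.8% of all genes in knockout and 15.7% in control. From 3000 to 6000 UMIs these counts were 31 in knockout, beside 10.3% of genes, and 25 in control, beside 11.6%. From 6000 to 12000 UMIs they were 39 in knockout, beside 6.99% of genes, and 21 in control, beside 9.52%. From 12000 to 24000 UMIs they were 6 in knockout, beside 3.53% of genes, and 5 in control, beside 5.54%. In the deepest band 72 members in knockout and 68 in control were still lower, but none was 1.5-fold lower, where 3.39% of all genes in knockout and 3.17% in control were. The insulin-leading cells thus had less ribosomal protein message per UMI at every depth, and the distance was smallest in the deepest cells. Rpl13a kept a log2 ratio of -0.51 in knockout and -0.41 in control there.

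The members' share of all UMIs was lower in cells that spent more of their UMIs on insulin. In knockout cells it was 17.5% with insulin under 5% of UMIs, 16.1% at 5 to 10%, 15.04% at 10 to 20%, 11.9% at 20 to 30% and 8.37% at 30% or more. In control cells it was 17.4%, 16.3%, 15.4%, 12.9% and 9.18% over the same bands. Counted among UMIs outside hormone and mitochondrial genes, the share was nearly level in control cells, between 17.9% and 18.8%, and lower in the upper bands of knockout cells, with 18.8%, 18.4%, 18.7%, 17.3% and 16.0% in band order. In the richest band insulin took 41.4% of UMIs in knockout and 47.2% in control.

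**Figure D3:**
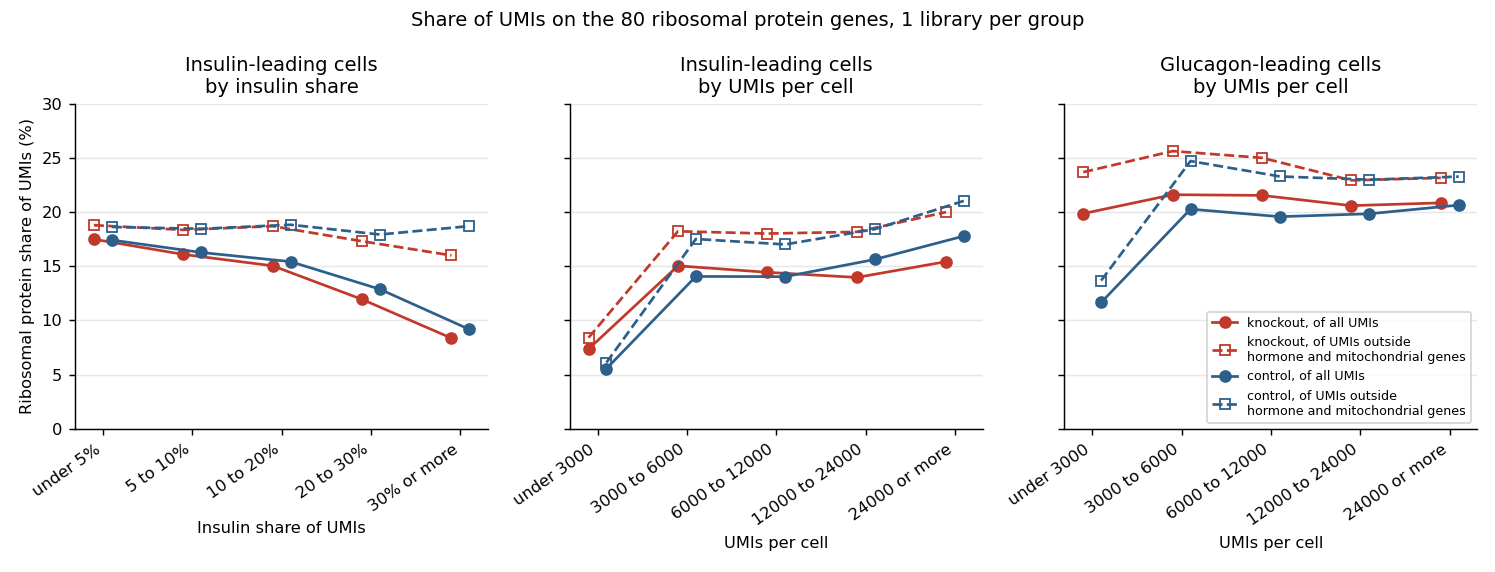
Share of UMIs on the 80 ribosomal protein genes, in percent, by insulin share and by UMIs per cell, red for the knockout and blue for the control library, of all UMIs (filled circles) and of UMIs outside hormone and mitochondrial genes (open squares). The filled circles of insulin-leading cells reach 8.37% in knockout and 9.18% in control in the insulin-richest cells, and 7.37% in knockout and 5.56% in control in the shallowest cells.

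Highest over lowest insulin band, the median over members was -0.20 in knockout, with 71 of 80 lower, and 0.18 in control, with 63 of 80 higher. TMM scaling moved these medians by 0.85 in knockout and 1.11 in control, and without it both were below 0, at -1.06 in knockout and -0.93 in control. With each cell weighted equally both were above 0, at 0.29 in knockout and 0.84 in control, so the sign in knockout turned with the weight of cells. Relative to the median of all genes, they were -0.23 in knockout and 0.13 in control with TMM scaling and summed cells, and 0.16 in knockout and 0.65 in control with equal weight. At least 1.5-fold lower were 2 members in knockout, Rpl12 and Rpl36a, and 1 in control, Rpl12, where 6.65% of all genes in knockout and 10.9% in control were. At least 1.5-fold higher were 4 members in control and none in knockout, where 15.6% of all genes in control and 11.6% in knockout were.

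Rpl12, a protein at the base of the stalk, stood apart from the family by insulin content. In knockout cells it had 2413, 1834, 1489, 1093 and 671 CPM from the lowest to the highest insulin band, and in control cells 2989, 2071, 1731, 1293 and 791 CPM. Highest over lowest band its log2 ratio was -0.99 in knockout (-1.02 to -0.96) and -0.81 in control (-0.85 to -0.76), the lowest of the 80 in both. Rpl36a came next in knockout at -0.72 and stood at -0.26 in control, and Rps2 stood at -0.51 in knockout. In control Rpl10a stood at -0.35. The upper end was held by Rpl37a at 0.20, Rpl7l1 at 0.20, Rpl31 at 0.17 and Rplp0 at 0.06 in knockout, and by Rpl7l1 at 0.71, Rpl31 at 0.68, Rpl35a at 0.66 and Rpl37a at 0.66 in control. Rpl37a, Rpl31 and Rpl7l1 were in the upper 4 of both libraries.

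In insulin-leading cells the members' share also varied with the depth of the cell. Among insulin-leading cells with under 3000 UMIs it was 7.37% in knockout and 5.56% in control. From 3000 to 6000 UMIs it was 15.04% in knockout and 14.1% in control. From 6000 to 12000 UMIs it was 14.4% in knockout and 14.0% in control, and from 12000 to 24000 UMIs 14.0% in knockout and 15.6% in control. In cells with 24000 UMIs or more it was 15.4% in knockout and 17.8% in control. Deepest over shallowest band, the median over members was 1.41 in knockout and 1.98 in control, beside 0.24 in knockout and 0.23 in control over all genes. All 80 members were higher in both, 79 of them at least 1.5-fold in knockout and 80 in control, where 34.8% of all genes in knockout and 37.8% in control were. None was 1.5-fold lower, where 18.4% of all genes in knockout and 23.3% in control were. Rps2 had the highest ratio, 1.84 in knockout and 2.51 in control, and Rpl7l1 the lowest, 0.33 in knockout and 0.59 in control. Deepest over the band of 3000 to 6000 UMIs, the median was only 0.11 in knockout and 0.13 in control, so most of the difference lay below 3000 UMIs.

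The shallow cells differed in other RNA as well. With under 3000 UMIs, the nuclear transcript Malat1 had 134729 CPM in knockout and 90778 CPM in control, against 18483 CPM in knockout and 14279 CPM in control cells with 24000 UMIs or more. Gm42418 had 36870 CPM in knockout and 111709 CPM in control shallow cells. Cells with under 6% of UMIs on members made up 22.4% of insulin-leading cells in knockout and 19.3% in control, with a median of 1597 UMIs in knockout and 1560 in control. Of these low cells, 78.6% in knockout and 88.7% in control had under 3000 UMIs. Among shallow glucagon-leading cells the members' share was 19.9% in knockout (79 cells) and 11.7% in control (128 cells), against 20.9% in knockout and 20.6% in control glucagon-leading cells with 24000 UMIs or more. The part of RNA quality in these shares was not tested.

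Knockout over control, the family differed little in level. In insulin-leading cells the median log2 ratio was -0.10 over members and -0.06 over all 5545 genes compared, a difference of -0.03, with quartiles of the members at -0.17 and -0.01. Over all genes the quartiles were -0.22 and 0.12, and with a median below 0 most of them were lower too. Of the members 64 were lower and 16 higher, and none was 1.5-fold different, while 4.47% of all genes were at least 1.5-fold higher and 2.61% lower. Insulin was under 5% of UMIs in 2265 of the 7488 knockout and in 2397 of the 4762 control insulin-leading cells. These groups thus differed in insulin content, and ratios within insulin bands are given below. In glucagon-leading cells the median was 0.08 over members and 0.01 over all genes, with 21 lower and 59 higher, and again none was 1.5-fold different, where 0.563% of all genes were higher and 0.582% lower. In cells led by pancreatic polypeptide it was -0.07 over members and -0.02 over all genes, with 59 of 80 members lower. There were 43 members that were lower in insulin-leading and higher in glucagon-leading cells, 21 lower in both, 16 higher in both, and 0 with the opposite pattern. These patterns were not counted over all genes, whose medians were -0.06 in insulin-leading and 0.01 in glucagon-leading cells. Whether they are particular to the members was therefore not tested. The difference between the cell groups was not tested, and both contrasts come from the same pair of libraries.

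Both ends of the order held genes of both subunits. Rps2, which lines the entry of the messenger RNA channel, had 1430 scaled CPM in knockout and 1989 in control insulin-leading cells, a log2 ratio of -0.48 (-0.49 to -0.46). Rpl12 had 1620 scaled CPM in knockout and 2190 in control, a log2 ratio of -0.44 (-0.45 to -0.42). Rpl7a followed with 625 scaled CPM in knockout and 798 in control, at -0.35, and Rps18 with 1991 in knockout and 2517 in control, at -0.34. In glucagon-leading cells these genes had log2 ratios of -0.08 for Rps2, 0.03 for Rpl12, -0.03 for Rpl7a and -0.004 for Rps18. Among the lowest there were Rpl13a at -0.11, Rpl4 at -0.10 and Rps2. The lower end in insulin-leading cells was therefore wider than that in glucagon-leading cells.

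Rpl35, a protein beside the exit of the peptide tunnel, was the highest in both cell groups. It had 785 scaled CPM in knockout and 636 in control insulin-leading cells, a log2 ratio of 0.30 (0.28 to 0.32). In glucagon-leading cells it had 989 scaled CPM in knockout and 745 in control, a log2 ratio of 0.41 (0.37 to 0.45). Its neighbour at the tunnel exit, Rpl23a, had a log2 ratio of 0.07 in insulin-leading and 0.27 in glucagon-leading cells. Rps12 had log2 ratios of 0.18 in insulin-leading and 0.21 in glucagon-leading cells, Rps3a1 of 0.15 in insulin-leading and 0.31 in glucagon-leading cells, and Rps28 of 0.14 in insulin-leading and 0.15 in glucagon-leading cells. Rpl23 stood at 0.22 in glucagon-leading cells. Among the stalk proteins Rplp0 stood at -0.33, Rplp1 at -0.05 and Rplp2 at -0.02 in insulin-leading cells, and Rpsa at -0.14. The large subunit median lay slightly below the small one, at -0.10 for large and -0.06 for small in insulin-leading cells. In glucagon-leading cells it was 0.06 for large and 0.11 for small, and in cells led by pancreatic polypeptide -0.09 and -0.04. These differences are about as small as that of the family from all genes, and they were not tested. Counted by UMIs, large over small was 1.38 in knockout and 1.43 in control insulin-leading cells, and 1.35 in knockout and 1.40 in control glucagon-leading cells.

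**Figure D4:**
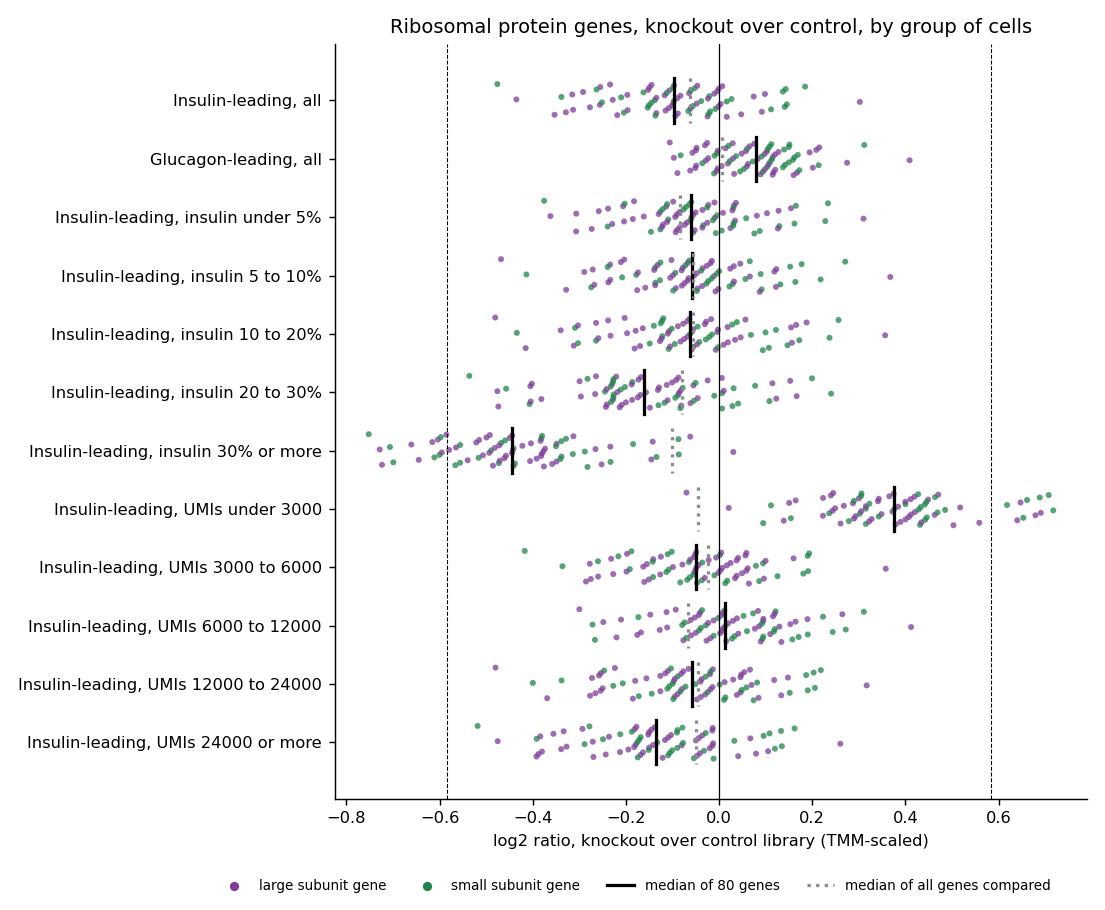
Log2 ratio of each of the 80 genes, knockout over control library, in all insulin-leading and glucagon-leading cells and in insulin-leading cells by insulin share and by UMIs per cell. Black bars are medians over the 80 genes, dotted grey bars medians over all genes compared, and dashed lines mark 1.5-fold. The family lies left of 0 in the insulin-richest band and right of 0 under 3000 UMIs.

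The sign of the family median depended on which insulin-leading cells were compared. By insulin band, from lowest to highest, the median knockout over control log2 ratio was -0.06, -0.06, -0.06, -0.16 and -0.44, beside -0.08, -0.06, -0.06, -0.08 and -0.10 over all genes. In the richest band, with 1000 knockout and 517 control cells, 79 of 80 members were lower and 14 were at least 1.5-fold lower and none higher, where 13.7% of all genes were lower and 11.1% higher. Rps2 had 677 scaled CPM in knockout and 1140 in control there, a log2 ratio of -0.75, Rpl29 stood at -0.73, Rpl7a at -0.72 and Rps27l at -0.71, and Rpl22l1 was the only member above 0, at 0.03. These ratios and counts carry the TMM scaling of that band. Before scaling, Rps2 had 747 CPM in knockout and 1033 CPM in control there. Rps12, at -0.09 after scaling, had 1075 CPM in knockout and 937 CPM in control before it. The members' share of all UMIs in that band was 8.37% in knockout and 9.18% in control. Outside hormone and mitochondrial genes it was 16.0% in knockout and 18.7% in control. The median UMI total of the cells in that band was 12074 in knockout and 8792 in control.

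By UMI band, from under 3000 upward, the median was 0.38, -0.05, 0.01, -0.06 and -0.14, beside -0.04, -0.02, -0.07, -0.04 and -0.05 over all genes, with 79 of 80 members higher in the shallowest band. Bands of UMIs and insulin were then crossed, and 21 crossed bands held at least 50 cells in both libraries. The median was below 0 in 12 of them and above 0 in 9, between -0.39 and 0.23, and it was below 0 in the 3 of these bands with insulin at 30% or more. Set against the median of all genes in the same band, the members' median was lower in 9 bands, these 3 included, and higher in 12. The large subunit median was below the small one in 15 of the 21, with differences between -0.11 and 0.03. Some members stayed on the same side of the family median in every band. Rpl12, Rps2 and Rpl4 lay below the family median in all 21 bands, and Rps24, Rps3a1, Rpl34, Rps28, Rps4x, Rps12, Rpl39 and Rpl35 above it in all 21. Rpl4, which lines the peptide tunnel, was below 0 in all 21, and no member was above 0 in all. The bands are parts of the same pair of libraries, so they are not independent repeats. How stable the order of all 80 members was across bands was not measured.

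Members with short coding sequences had higher knockout over control ratios. Across the 80 genes, Spearman's rho between coding length and the log2 ratio was -0.48 in insulin-leading and -0.45 in glucagon-leading cells. Pearson's r was -0.44 in insulin-leading and -0.38 in glucagon-leading cells, and the genes share their libraries and are not independent. The 27 shortest, of 75 to 399 bases, had a median log2 ratio of -0.01 in insulin-leading and 0.13 in glucagon-leading cells. The 26 in the middle had -0.10 in insulin-leading and 0.08 in glucagon-leading cells, and the 27 longest, of 576 to 1257 bases, had -0.15 in insulin-leading and 0.02 in glucagon-leading cells. Among the genes outside the family that passed the same level, rho was -0.01 over 5375 genes in insulin-leading and -0.34 over 5332 genes in glucagon-leading cells. By the same length limits these other genes had medians of -0.002, -0.05 and -0.07 from short to long in insulin-leading cells and 0.18, 0.13 and -0.01 in glucagon-leading cells. In glucagon-leading cells an order by length was thus also present outside the family. In insulin-leading cells the medians outside the family also fell from short to long, while rho was -0.01 and Pearson's r 0.04.

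**Figure D5:**
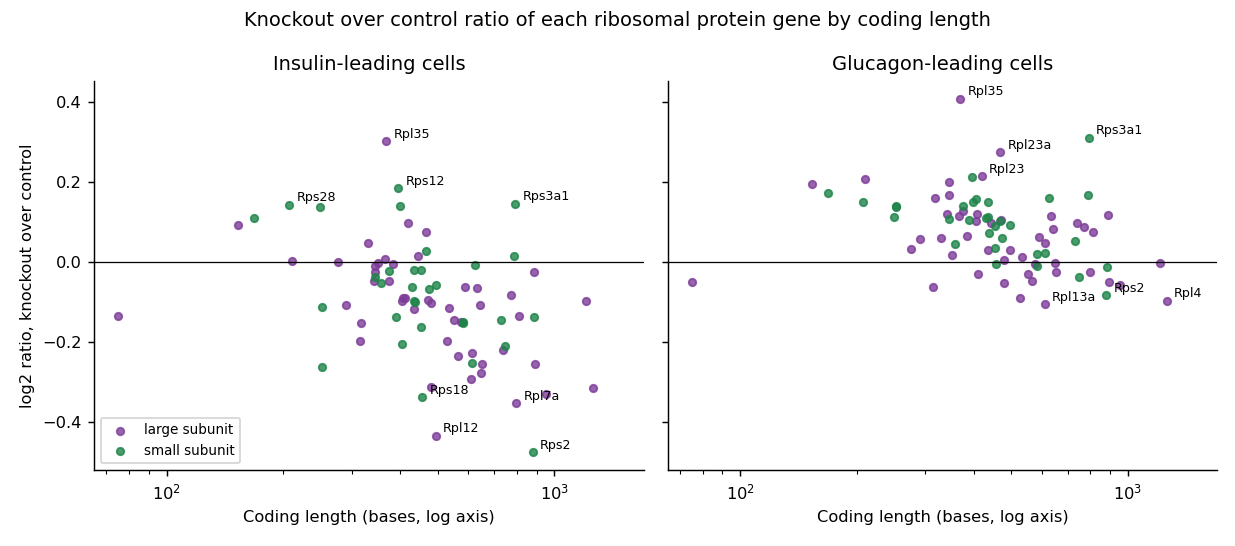
Log2 ratio of each of the 80 genes, knockout over control library, against coding length in bases on a log axis, for insulin-leading cells (left) and glucagon-leading cells (right), with genes at both ends of the order named in each panel. Long genes such as Rps2 and Rpl4 lie low in both panels, and Rps3a1, 792 bases, lies high in both.

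Ribosomal protein genes have many processed copies in the genome, and the counts of a member can share reads with them. The last 300 bases of the coding sequence matched a median of 4 other annotated genes over the 79 members with a value. The most were 38 for Rpl21, 34 for Rps2 and 26 for Rpl7a, and 9 members had such a copy among the features of the count tables. Rps2, at chr17:24718116-24721929 on the plus strand, and Rpl7a are thus uncertain as to reads, while Rpl4, at chr9:64173375-64178666, had 0 matches. Rpl12, at chr2:32961559-32965345, had 8, and Rpl35, at chr2:39001580-39005624, had 3. Spearman's rho between the number of matches and the knockout over control ratio in insulin-leading cells was 0.01 over 79 genes, and Pearson's r was -0.20.

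Genes that work with the ribosome were set beside the family. Over all genes, the knockout over control median was -0.06 in insulin-leading cells, with quartiles at -0.22 and 0.12. It was 0.01 in glucagon-leading cells, with quartiles at -0.11 and 0.13. The counts of lower genes below are read beside these. Insulin-leading over glucagon-leading cells, the medians over all genes were 0.04 in knockout and 0.12 in control. These groups of genes were not split by insulin or UMI band. Translation factors and other messages with a TOP tract were lower in knockout insulin-leading cells for 18 of 20 genes, with a median log2 ratio of -0.21. Eif4b stood at -0.39, Eif3e at -0.38, Eef2, the elongation factor for translocation, at -0.36 and Eif3f at -0.36. In glucagon-leading cells 11 of the 20 were lower, with a median of -0.07. Of 25 ribosome assembly and rRNA synthesis genes at the level compared, out of 30, 23 were lower in knockout insulin-leading cells, with a median of -0.37, and 1, Bop1, was at least 1.5-fold lower at -0.72, where 2.61% of all genes were. Mybbp1a stood at -0.56, and Ltv1 and Nop56 at -0.52. In glucagon-leading cells 13 of 25 were lower, with a median of -0.01. Mitochondrial ribosomal proteins had a median of -0.13 over 73 of 78 genes in insulin-leading cells and 0.21 over 69 in glucagon-leading cells. Insulin-leading over glucagon-leading cells, the assembly genes had medians of 0.001 in knockout and 0.30 in control and the mitochondrial ribosomal proteins 0.06 in knockout and 0.32 in control, while the translation factor group stood at -0.36 in knockout and -0.24 in control. The lower level of the cytosolic family in insulin-leading cells was not seen in the medians of the assembly and the mitochondrial group.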

How the data were processed

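What the authors deposited are unnormalized UMI counts for every gene and barcode. Their file headers name Cell Ranger 6.0.0, and the submitters' processing notes name the build mm10, R 4.1.1 and Seurat 4.1.0. Nothing beyond counting is recorded in them. The knockout library had 10033 barcodes with 89977773 UMIs and the control library 7768 barcodes with 82541585 UMIs. The filters were at least 500 genes and at most 15% mitochondrial UMIs per barcode, with a median of 7639 UMIs in knockout and 8870 in control, and doublets were not removed. A cell's leading hormone was the one with most UMIs among Ins1 plus Ins2, Gcg, Sst and Ppy. Cells were not clustered.

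Counts were summed per library and group of cells with Python 3.11.15, numpy 2.4.6 and scipy 1.17.1. CPM were taken over all UMIs of the group. Ratios were scaled by TMM factors of each pair of sums, and "scaled CPM" carries those factors. Their intervals are exact binomial 95% intervals of 1 count given the pair's total. Alternatives, given in the closing section, changed the scaling, the cell filters, the hormone rule and the weight of cells. Genes with a mean of at least 25 CPM were compared, a 1.5-fold difference was counted, and bands needed 50 cells. No p-value was computed. TMM scaling and intervals were tested on simulated counts. Positions and coding lengths came from GENCODE mouse release 21 and copies from blastn 2.17.0 at 97% identity over at least 90 bases. Start windows came from RefSeq.

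Named genes are the 6 highest and 4 lowest members, the 4 highest and 4 lowest ratios of each comparison, the paralog pairs, Rplp0, Rplp1, Rplp2, Rpsa and at most 4 genes of each other list by size of ratio. Some genes this rule picks are not reported here. Rpl36a, Rps6 and those named for bands, copies or sequences were added after their values were seen. The members and lists were chosen with earlier results of these data known.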

Additional observations from a re-analysis of the deposited data

Results flagged for a closer look

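The median knockout over control log2 ratio of the 80 ribosomal protein genes was -0.10 in insulin-leading and 0.079 in glucagon-leading cells, opposite in sign. Highest over lowest insulin band, the median was -0.20 in the knockout and 0.18 in the control library, again opposite in sign, but with each cell weighted equally both were above 0, at 0.29 in knockout and 0.84 in control, and without a scaling factor both were below 0, at -1.06 in knockout and -0.93 in control. Knockout over control, it was 0.38 in insulin-leading cells with under 3000 UMIs and -0.14 in those with 24000 UMIs or more. None of these differences was tested, since each genotype has 1 library.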

How the results depend on the processing

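No paired analysis was possible because each genotype has 1 library. The alternatives were TMM factors without the members, no scaling factor, UMIs without hormones and mitochondrial RNA as the total, equal weight for each cell, no cell filter, at most 10% mitochondrial UMIs, a leading hormone with 3 times the next or with 5% of UMIs, member minimums of 10 and 200 CPM, and, added after seeing the data, cells with 3000 UMIs or more. Under all of them no member was 1.5-fold different knockout over control in insulin-leading cells, and the members' medians kept their sign in both cell groups knockout over control, insulin- over glucagon-leading and deepest over shallowest. Those of highest over lowest insulin band did not. The contrasts within bands and in cells led by pancreatic polypeptide were not recomputed, nor were those of the genes that work with the ribosome. Relative to all genes, the knockout over control median lay between -0.06 and -0.003 in insulin-leading and between 0.06 and 0.13 in glucagon-leading cells. The insulin-leading over glucagon-leading median lay between -0.88 and -0.50 in knockout and between -0.74 and -0.43 in control.

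Without a scaling factor the medians were -0.15 for knockout over control in insulin-leading cells, -1.06 in knockout and -0.93 in control for highest over lowest insulin band, and 1.07 in knockout and 1.70 in control for deepest over shallowest UMI band. In the insulin band contrast single genes then reversed, with Rplp0 at -0.79, Rpl31 at -0.68, Rpl7l1 at -0.65 and Rpl37a at -0.65 in knockout, and Rpl37a at -0.454, Rpl35a at -0.454, Rpl31 at -0.43 and Rpl7l1 at -0.40 in control. Rpl7l1 reversed to -0.0044 in knockout for deepest over shallowest UMI band. These follow from the scaling itself.

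With UMIs without hormones and mitochondrial RNA as total, the medians were -0.048 for knockout over control in insulin-leading cells, -0.41 for insulin- over glucagon-leading cells in knockout, -0.0030 for highest over lowest insulin band in control, and 1.26 in knockout and 1.81 in control by depth. Rpl12 in control insulin- over glucagon-leading cells was 0.018 there and 0.024 in cells with 3000 UMIs or more. In those cells the medians in knockout were -0.45 for insulin- over glucagon-leading cells and -0.29 for highest over lowest insulin band, with Rplp0 at -0.033.

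With each cell weighted equally, shallow cells count as much as deep ones. The medians were -0.90 in knockout and -0.66 in control for insulin- over glucagon-leading cells, 0.29 in knockout and 0.84 in control by insulin band, 2.08 in control by depth and 0.15 for knockout over control in glucagon-leading cells. Reversed single genes were Rpl22l1 at -0.12 in knockout insulin- over glucagon-leading cells, and Rpl10a at 0.17 and Rpl36a at 0.31 in control by insulin band. With a leading hormone of 3 times the next, insulin- over glucagon-leading cells stood at -0.599 in knockout and knockout over control in glucagon-leading cells at 0.13. With 5% of UMIs the same values were -0.600 in knockout for insulin- over glucagon-leading cells, and 1.14 in knockout and 1.16 in control by depth, and no cells remained for the lowest insulin band. Without a cell filter the depth median in knockout was 1.33. Beyond scaling, the cause was not tested. Counting error is small beside the spread among members, and the absence of replicate libraries limits each knockout over control value.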
